A study of Mus musculus with 9 samples.

Results

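A set of 10 genes of insulin signalling and of the control of mTOR, out of the 17314 in the table, was followed in the ageing gastrocnemius muscle of mice. They were Insr, Irs1, Irs2, Pik3r1, Akt1, Akt2, Mtor, Ddit4, Ddit4l and Deptor. The set was taken by gene symbol, and it was chosen on differences between ages already seen in these libraries, so its age differences are given as descriptions. All 10 of 10 passed the filter on low counts, as did 13044 genes in all. Messenger RNA was sequenced from gastrocnemius, the large and mostly fast calf muscle, of mice aged 6, 15 and 21 months. Each age had 3 mice with 1 library per mouse, and age is the one factor the labels give. The sources used here do not give strain, sex, feeding or the hour of tissue collection. By its title the series is about muscle ageing and thyroid hormone receptor alpha.

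Insulin binds its receptor at the surface of the muscle fibre, the receptor phosphorylates the adaptors IRS1 and IRS2, and these recruit phosphoinositide 3-kinase. The lipid this kinase makes brings AKT to the membrane, and AKT promotes glucose uptake, keeps FoxO transcription factors out of the nucleus and relieves the block that the TSC complex places on mTOR complex 1, which drives protein synthesis. The other 3 genes are brakes on mTOR: DDIT4 (REDD1) and its relative DDIT4L (REDD2) restrain mTOR complex 1, DDIT4 through the TSC complex, and DEPTOR binds mTOR itself.

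The largest differences with age were in 2 of the brakes. Ddit4 averaged 36.9 CPM (counts scaled to a common library size) at 6 months, 8.47 at 15 and 6.56 at 21, but 1 of the 3 young mice had a level like that of the older mice. Ddit4l averaged 384, 308 and 214 CPM at the same ages, and every mouse of 21 months was below every mouse of 6 months. Insr, Irs1, Irs2, Pik3r1, Akt1, Akt2 and Deptor had groups that overlapped in each comparison of ages. Mtor was slightly higher at both older ages than at 6 months, with edgeR adjusted p = 0.459 at 15 months and 0.605 at 21.

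The stretches before the start sites of Ddit4 and Ddit4l are shown because these genes carried the largest differences and because the series concerns a nuclear receptor. Each run is the 250 bases before the RefSeq start site, on build GRCm38.p6, 5′ to 3′ on the strand of the gene. The first is chr10:59951771-59952020 on the minus strand and the second chr3:137623422-137623671 on the plus strand. Capitals mark the motif matches described next.
Ddit4: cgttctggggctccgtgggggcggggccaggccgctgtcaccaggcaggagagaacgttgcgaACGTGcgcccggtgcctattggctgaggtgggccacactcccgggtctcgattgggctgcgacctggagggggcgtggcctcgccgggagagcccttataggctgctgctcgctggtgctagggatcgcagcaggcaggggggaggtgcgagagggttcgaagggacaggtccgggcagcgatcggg
Ddit4l: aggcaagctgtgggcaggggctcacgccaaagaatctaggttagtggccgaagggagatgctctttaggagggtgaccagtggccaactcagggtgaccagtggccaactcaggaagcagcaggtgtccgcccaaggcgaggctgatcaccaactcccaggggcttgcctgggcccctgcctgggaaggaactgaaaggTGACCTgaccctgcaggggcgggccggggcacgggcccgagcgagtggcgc
The Ddit4 stretch was 70.0% G or C. It held 1 match to ACGTG, a form of the core of the hypoxia response element, from -187 to -183 of the start site. That motif was in 16.6% of 32851 mouse promoter stretches of the same length, on either strand. The other form, GCGTG, was not searched, and both printed stretches hold it, that of Ddit4l as the reverse complement CACGC. The Ddit4l stretch was 65.2% G or C and held 1 match to AGGTCA, the half-site of the thyroid hormone receptor and related receptors, on the reverse strand (printed as TGACCT) from -51 to -46. AGGTCA was in 14.0% of the stretches. Neither stretch held AGAACA, a half-site of the glucocorticoid receptor, found in 16.1% of the stretches, or GTAAACA, the FoxO element, found in 3.17%. There was also no match to the E-box CACGTG, which 6.02% of the stretches held, or to the TATA box, searched as TATAAA and held by 12.4%. The same was true of the half-site of cAMP-responsive factors, searched as TGACG and held by 17.8%, and of the core of the ATF4 element, searched as TGATG and held by 34.5%. Both strands were searched, and ACGTG lies within the E-box, so the counts of that pair overlap. RefSeq stretches were found for 8 of the 10 genes.

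Ddit4 (Entrez 74747, chr10:59949675-59951770) stood at 43.2, 58.4 and 8.95 CPM in mice 1, 2 and 3 of 6 months. It stood at 6.14, 9.55 and 9.73 CPM in the 15-month mice and at 5.35, 8.47 and 5.87 CPM in the 21-month mice. Mice 1 and 2 of 6 months stood far above the other 7 libraries, while mouse 3 of that age lay just above the highest mouse of 21 months and below 2 of the 3 mice of 15 months. The groups of 6 and 21 months therefore did not overlap, and those of 6 and 15 months did. The levels rest on 146 to 933 counts in the young mice and on 89 to 155 in the older ones. The mean ± SD was 36.9 ± 25.3 CPM at 6 months, 8.47 ± 2.03 at 15 and 6.56 ± 1.67 at 21 (n = 3 each).

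On the log2 scale Ddit4 differed by -2.49 (SE 0.54) between 21 and 6 months, a 5.61-fold lower level, and by -2.12 (SE 0.53) between 15 and 6 months. These comparisons share the 6-month mice. The edgeR quasi-likelihood test gave adjusted p = 0.135 and 0.2498, and DESeq2 gave 0.0118 and 0.0708. Mouse 3 of 6 months decided the edgeR call: without it the differences were -2.94 (edgeR adjusted p = 0.00285) and -2.57 (edgeR adjusted p = 0.00767). Leaving out the mouse unlike the rest of its age narrows the spread by choice, so these values are no support for a difference. Over all genes the same omission raised the edgeR calls from 2 to 42 and from 1 to 10. Without mouse 2 of 6 months the Ddit4 differences were smaller, -1.99 and -1.62 (edgeR adjusted p = 0.364 and 0.548). Without mouse 1 of 6 months they were -2.36 and -1.99 (edgeR adjusted p = 0.256 and 0.392). Between 21 and 15 months the Ddit4 difference was -0.37 (SE 0.55), and -0.60, -0.55 and -0.24 without mouse 2 of 21 months, mouse 1 of 15 months and mouse 1 of 21 months. In whole muscle, fewer cells of a type and less RNA per cell cannot be told apart, here and in all that follows.

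Ddit4l (Entrez 73284, chr3:137623672-137628332) stood at 342, 425 and 385 CPM in the 6-month mice, at 238, 291 and 396 CPM in the 15-month mice and at 245, 185 and 212 CPM in the 21-month mice. The young and old groups were well apart, with a gap from 245 to 342 CPM. The 15-month mice spread across both, with mouse 3 at the level of the young and mouse 1 at that of the old. Means were 384 ± 41.5, 308 ± 80.5 and 214 ± 29.9 CPM (SD, n = 3). The difference between 21 and 6 months was -0.85 (SE 0.18) on the log2 scale, a 1.80-fold lower level, with adjusted p = 0.136 by edgeR and 0.00241 by DESeq2. It lay between -0.95 and -0.75 when any 1 library was left out. Between 15 and 6 months it was -0.32 (SE 0.18), which became -0.16 without mouse 1 of 15 months and -0.54 without mouse 3, and between 21 and 15 months it was -0.53 (SE 0.18), or -0.31 without mouse 3 of 15 months.

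Deptor (Entrez 97998, chr15:55112317-55259273) stood at 108, 131 and 156 CPM in the 6-month mice, at 80.2, 104 and 122 CPM at 15 months and at 114, 125 and 94.4 CPM at 21 months. The groups overlapped in each comparison. The log2 difference was -0.24 (SE 0.18) between 21 and 6 months and -0.37 (SE 0.18) between 15 and 6 months. Without mouse 3 of 6 months these were -0.096 and -0.22. The first was -0.37 without mouse 1 of 6 months and -0.14 without mouse 3 of 21 months, and the second -0.22 without mouse 1 of 15 months. Of its exon bases, 277 lie over the exons of Gm9920 on the other strand.

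**Figure D1:**
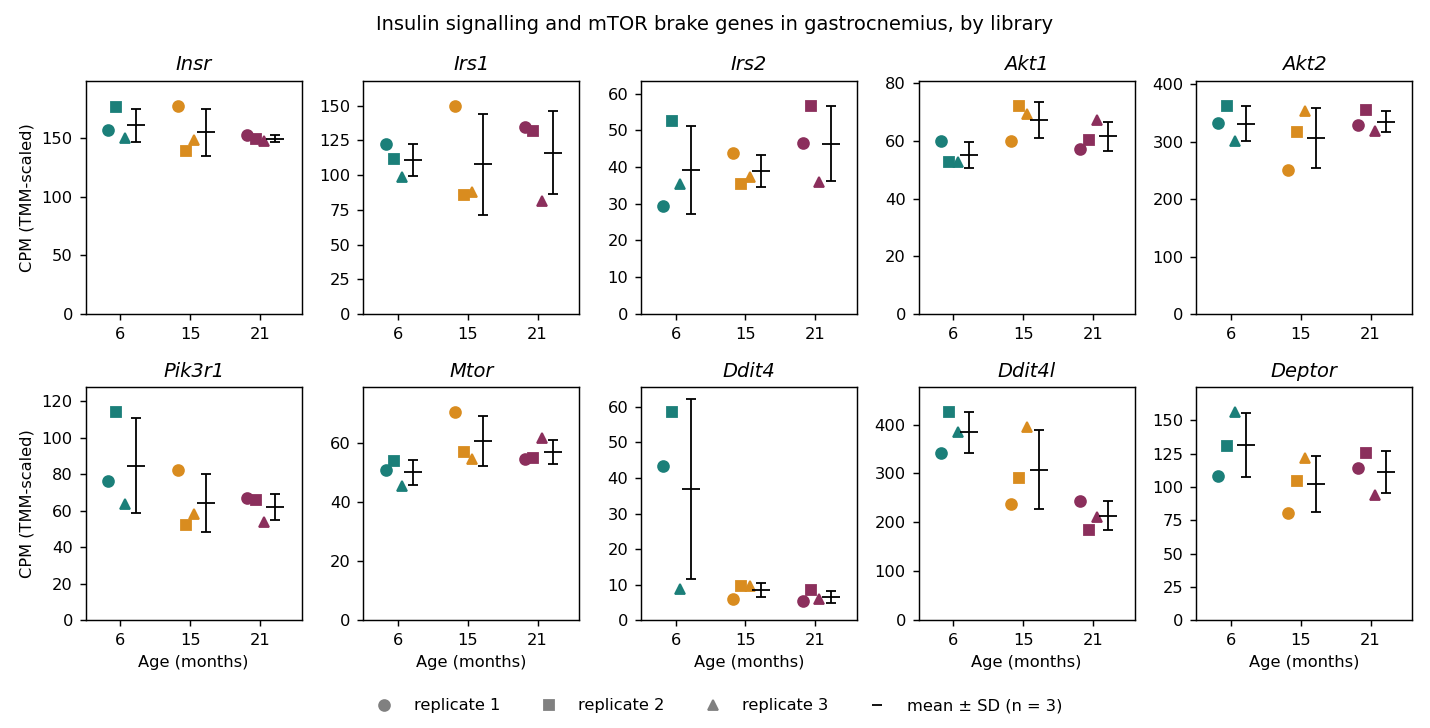
CPM (linear axes that start at 0, 1 panel per gene) of the 10 genes in each of the 9 libraries, grouped by age in months; points are single mice and bars the group mean ± SD. Ddit4 shows 2 young mice at 43.2 and 58.4 CPM above 7 libraries at or below 9.73 CPM, and Ddit4l shows the 21-month mice below all the 6-month mice.

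The receptor and its adaptors came next in the pathway. Insr, the insulin receptor (Entrez 16337, chr8:3150922-3279649), stood at 156, 177 and 149.5 CPM at 6 months, at 177, 139 and 148 CPM at 15 months and at 153, 149 and 147 CPM at 21 months. It varied least of the 10, with a highest library 1.28 times the lowest. Its log2 difference between 21 and 6 months was -0.11 (SE 0.11).

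Irs1, the adaptor most used by insulin in muscle (Entrez 16367, chr1:82233105-82291439), stood at 122, 112 and 98.8 CPM at 6 months, at 149.8, 85.7 and 87.6 CPM at 15 months and at 135, 132 and 81.6 CPM at 21 months. The spread within the older ages was larger than any difference of means, which were 111 ± 11.7, 108 ± 36.5 and 116 ± 29.8 CPM (SD, n = 3). Of its 9144 exon bases, 2822 lie over exons of Gm9747 on the other strand. No source used here says whether counting used the strand, so reads of that pair cannot be told apart.

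Irs2, the second adaptor (Entrez 384783, chr8:10984681-11008929), stood at 29.5, 52.4 and 35.5 CPM at 6 months, at 43.9, 35.4 and 37.4 CPM at 15 months and at 46.6, 56.6 and 35.9 CPM at 21 months. The groups overlapped in each comparison. The log2 difference of 0.25 (SE 0.22) between 21 and 6 months became 0.51 without mouse 2 of 6 months, 0.40 without mouse 3 of 21 months and 0.08 without mouse 1 of 6 months or mouse 2 of 21 months.

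Pik3r1, which encodes the p85 alpha regulatory subunit of phosphoinositide 3-kinase (Entrez 18708, chr13:101680761-101768217), stood at 76.1, 114 and 63.8 CPM at 6 months, at 82.0, 52.4 and 58.2 CPM at 15 months and at 66.9, 65.6 and 53.5 CPM at 21 months. The means were 84.5 ± 26.0, 64.2 ± 15.7 and 62.0 ± 7.35 CPM (SD, n = 3), and mouse 2 of 6 months set much of the first. The log2 difference between 21 and 6 months was -0.45 (SE 0.22), and -0.18 without that mouse. Between 15 and 6 months it was -0.40 (SE 0.22), and -0.12 without the same mouse or -0.61 without mouse 1 of 15 months. Mouse 2 of 6 months also had the highest summed level of 4 fibro-adipogenic progenitor markers, 1603 CPM against 963 to 1237 CPM in the other 8. The part of this in its Pik3r1 value was not tested.

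The AKT kinases act next. Akt1, the widely expressed form (Entrez 11651, chr12:112653821-112674884), stood at 60.1, 52.6 and 52.6 CPM at 6 months, at 60.1, 72.1 and 69.2 CPM at 15 months and at 57.1, 60.5 and 67.2 CPM at 21 months. Mice 2 and 3 of 6 months were the lowest of the 9 libraries, and the log2 difference was 0.28 (SE 0.11) between 15 and 6 months and 0.16 (SE 0.11) between 21 and 6 months, the latter 0.094 without mouse 3 of 21 months. Akt2, the form tied to insulin-driven glucose uptake (Entrez 11652, chr7:27591552-27640826), stood at 332, 362 and 301 CPM at 6 months, at 250.4, 316 and 354 CPM at 15 months and at 329.6, 355 and 319 CPM at 21 months. Its log2 difference was 0.01 (SE 0.14) between 21 and 6 months and -0.11 (SE 0.14) between 15 and 6 months. Whether the age differences of the pair differ from each other was not tested.

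Mtor, the kinase of both mTOR complexes (Entrez 56717, chr4:148448582-148557685), stood at 50.8, 53.8 and 45.5 CPM at 6 months, at 70.3, 56.8 and 54.6 CPM at 15 months and at 54.4, 54.9 and 61.6 CPM at 21 months. Each older mouse was above each young one, by as little as 53.8 against 54.4 CPM. The log2 difference was 0.28 (SE 0.12) between 15 and 6 months and 0.19 (SE 0.12) between 21 and 6 months, and 0.16 for the first without mouse 1 of 15 months.

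**Figure D2:**
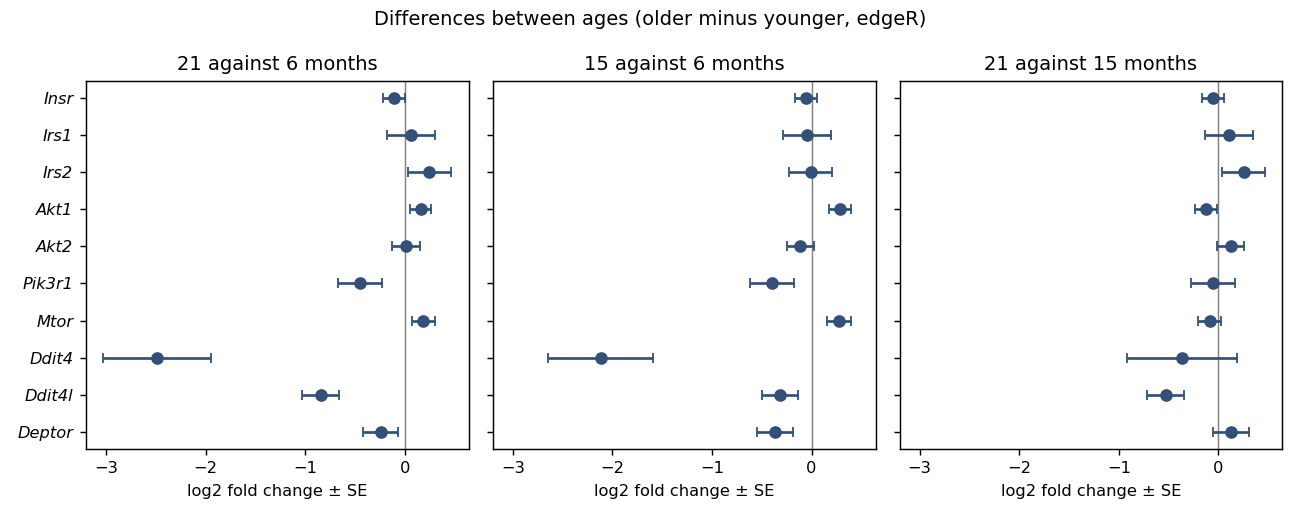
Log2 fold change (older minus younger, edgeR) of the 10 genes in each pair of ages; points are estimates and bars ± SE. Ddit4 lies at -2.49 and -2.12 in the comparisons with 6 months, Ddit4l at -0.85 in that of 21 with 6 months, and the other 8 genes lie between -0.45 and 0.28 in all 3 panels.

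Counts of calls over the 10 genes are set beside those over all tested genes, and nothing is read from them, since the set was chosen on this contrast. By edgeR at an adjusted p under 0.05, 0 of the 10 were called between any ages, where 0.0153% of 13044 genes were called between 21 and 6 months, 0.00767% between 15 and 6 months and 0% between 21 and 15 months. At an unadjusted p under 0.05, Ddit4 and Ddit4l passed between 21 and 6 months (10.6% of all genes), Akt1, Mtor and Ddit4 between 15 and 6 months (10.3%) and Ddit4l between 21 and 15 months (1.82%). DESeq2 called Ddit4 and Ddit4l between 21 and 6 months, where it called 1.53% of all genes. It called 0 of the 10 in the others, where it called 0.892 and 0.023%. Groups did not overlap for 3 of the 10 (Mtor, Ddit4 and Ddit4l) between 21 and 6 months, for Mtor alone between 15 and 6 months and for 0 between 21 and 15 months, against 16.1, 13.8 and 6.14% of all genes.

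Per kilobase of exon, the order of the levels over all 9 libraries put Ddit4l first at 111 ± 32.3 CPM per kb (SD, n = 9). Akt2 followed at 67.2 ± 7.11, and its highest library overlapped the lowest of Ddit4l. Akt1 at 22.8 ± 2.58 and Insr at 16.6 ± 1.42 CPM per kb were set apart from Akt2, and their ranges did not meet. The range of Insr overlapped that of the next gene. Below it, Deptor at 12.97 ± 2.48, Irs1 at 12.2 ± 2.69, Pik3r1 at 9.29 ± 2.51, Irs2 at 6.56 ± 1.42 and Mtor at 6.36 ± 0.789 CPM per kb formed a run in which each overlapped the next. Ddit4 had no one place in the order, so it is given by age: 21.0 ± 14.4 CPM per kb at 6 months, the third highest mean after Akt2, and 4.83 ± 1.15 at 15 months and 3.74 ± 0.954 at 21 months, the lowest mean of the 10 (SD, n = 3). It ran from 3.05 CPM per kb in its lowest library, below every library of the other 9 genes, to 33.3 in its highest, a ratio of 10.9. The ratio was 2.30 for Ddit4l, 2.17 for Pik3r1 and between 1.28 and 1.95 for the other 7 genes. Transcripts of Ddit4 and Ddit4l shared 0 stretches of 31 bases, those of Irs1 and Irs2 shared 0, and those of Akt1 and Akt2 shared 3.

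Libraries of the same age differed in the levels of fibre markers. The list of 8 slow fibre markers includes Myh2, which encodes the myosin of fast type IIa fibres. The summed level of the 8 ran from 57.1 CPM in mouse 2 of 6 months to 5306 CPM in mouse 1 of 15 months and 4473 CPM in mouse 3 of 21 months. Mouse 2 of 15 months had 3295 CPM, and the other 5 libraries had 671 to 1774 CPM. The first 3 lay farthest out on the first principal component (35.2% of the variance). All 10 fast fibre markers passed the filter, with sums from 116907 to 174920 CPM, and no marker of adipocytes, macrophages, endothelium, progenitors, satellite cells, erythrocytes or Schwann cells was at 0 in every library. Mtor had its highest levels in mouse 1 of 15 months (70.3 CPM) and mouse 3 of 21 months (61.6 CPM), where Deptor was lowest in its age group (80.2 and 94.4 CPM). In mouse 2 of 15 months Mtor stood at 56.8 and Deptor at 104 CPM, both between the other mice of that age. Ddit4l stood at 238, 291 and 396 CPM in mice 1, 2 and 3 of 15 months, where the fast fibre sums were 116907, 144414 and 170074 CPM. At 6 months Ddit4l was 342, 425 and 385 CPM beside sums of 158743, 174920 and 160924 CPM, again in the same order. The order differed at 21 months, with 245, 185 and 212 CPM beside 150052, 158907 and 129120 CPM. The part of fibre make-up in these values was not tested. Without the 3 libraries the log2 difference between 21 and 6 months was -1.91 for Ddit4, -0.76 for Ddit4l, 0.18 for Mtor and -0.08 for Pik3r1. Between 15 and 6 months it was -1.43 for Ddit4 and -0.08 for Ddit4l.

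The other genes of the pathway were read from lists by role. Genes that respond to glucocorticoids, FoxO factors, hypoxia or ATF4 were read from further lists. All were chosen with earlier results of these data known, so their counts and shares are descriptions, and nothing is read from them. Of 170 genes pooled over all these lists 167 were tested, and edgeR called 0 in each comparison. At an unadjusted p under 0.05, 31 passed between 21 and 6 months (18.6%, where 10.6% of all genes passed), 20 between 15 and 6 months (11.98% against 10.3%) and 4 between 21 and 15 months (2.40% against 1.82%). Between 21 and 6 months, 2 of 17 receptor and adaptor genes passed higher and 1 lower. Such passes were 2 and 0 of 21 for PI3K and 0 and 2 of 15 for AKT substrates. For mTOR partners they were 0 and 1 of 23, and for nutrient input 2 and 3 of 38. In the response lists they were 2 and 6 of 16 (glucocorticoid) and 0 and 2 of 16 (FoxO). For hypoxia they were 4 and 1 of 14, and for ATF4 4 and 1 of 15. DESeq2 called 4 between 21 and 6 months (Grb10, Hk2, Zbtb16 and Cebpd; 2.41%, where it called 1.53% of all genes), 5 between 15 and 6 months (Grb10, Glul, Hk2, Zbtb16 and Fkbp5; 3.03% against 0.892%) and 0 between 21 and 15 months. Of the genes DESeq2 called, Grb10 alone was in a list of the pathway itself. Hk2 was in the hypoxia list and the others in the glucocorticoid-responsive list. Hk2, Zbtb16 and Glul are named after their values were seen.

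Grb10 is an adaptor that restrains signalling by the insulin receptor and is itself a substrate of mTOR complex 1. It was the only gene of the receptor and adaptor list that DESeq2 called. It stood at 56.9, 68.8 and 66.9 CPM at 6 months, at 45.0, 41.4 and 35.6 CPM at 15 months and at 41.3, 42.7 and 45.0 CPM at 21 months. Each young mouse was above each older mouse. The log2 difference was -0.58 (SE 0.11) between 21 and 6 months, with adjusted p = 0.0837 by edgeR and 0.00249 by DESeq2. It was -0.66 (SE 0.11) between 15 and 6 months, with 0.194 and 0.000527. Socs3 and Shc1, named after their values were seen, were higher in each mouse of 21 months than in each of 6 months. Socs3, with the largest difference of the list, stood at 3.58, 1.63 and 3.37 CPM at 6 months and at 7.81, 3.82 and 6.98 CPM at 21 months. Its log2 difference was 1.11 (SE 0.36, edgeR adjusted p = 0.302), and that of Shc1 0.28 (SE 0.09, edgeR adjusted p = 0.323). Igf1r, the receptor of insulin-like growth factor 1, averaged 28.8, 25.4 and 25.1 CPM at the 3 ages. The 17 tested genes of the list had a median log2 difference of -0.002 between 21 and 6 months, whose sign changed under several settings, against -0.01 for all genes.

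Of the enzymes that make and remove the lipid signal, Pik3ca, the p110 alpha catalytic subunit, averaged 77.7, 72.9 and 82.0 CPM at 6, 15 and 21 months. Pdpk1, the kinase that activates AKT, averaged 65.5, 68.4 and 70.6 CPM. Their age groups overlapped in each comparison, as did those of Inppl1, a lipid phosphatase. The 21 genes of this list had a median of 0.08 between 21 and 6 months, and 0.003 without the 3 libraries far out on the first component. Between 15 and 6 months it was 0.06, and -0.005 without those libraries.

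Among AKT substrates, Foxo3, a transcription factor of atrophy genes, stood at 44.2, 56.7 and 44.2 CPM at 6 months and at 40.5, 39.1 and 33.7 CPM at 21 months, without overlap, with a log2 difference of -0.36 (SE 0.15). Foxo1 overlapped between ages, at -0.28 (SE 0.19). Tsc1 and Tsc2, which form the TSC complex, differed by 0.01 (SE 0.11) and -0.01 (SE 0.10), and Akt1s1, the mTOR inhibitor PRAS40, by -0.11 (SE 0.09). Slc2a4, the insulin-driven glucose transporter GLUT4, averaged 748, 752 and 673 CPM at 6, 15 and 21 months, with overlapping groups. Of the 15 genes, 12 lay below 0 between 21 and 6 months, with a median of -0.15. It was -0.071 with total count scaling, and -0.069 and -0.079 without mouse 1 or 2 of 6 months.

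The partners of mTOR came next. Rptor, which defines mTOR complex 1, averaged 43.1, 43.6 and 43.2 CPM, and Rheb, its activator, 96.8, 99.3 and 100.1 CPM. Mlst8, shared by both complexes, was higher in each mouse of 21 months than in each of 6 months, by 0.19 (SE 0.10). Rictor, which defines mTOR complex 2, was lower in each mouse of 15 months than in each of 6 months, by a log2 difference of -0.30 (SE 0.13), and overlapped at 21 months. The largest difference of the list was in Prr5, another component of mTOR complex 2, named after its values were seen. It stood at 3.96, 3.50 and 4.84 CPM at 6 months and at 2.58, 3.16 and 3.03 CPM at 21 months, with a log2 difference of -0.49 (SE 0.21), and -0.48 (SE 0.21) between 15 and 6 months. Of the effectors, Rps6kb1 differed by -0.03 (SE 0.13) between 21 and 6 months and Eif4ebp1 by -0.35 (SE 0.30), while Lpin1 averaged 734, 638 and 684 CPM at 6, 15 and 21 months. The 23 tested genes had a median of -0.05 between 21 and 6 months, which was 0.03 with total count scaling and also 0.03 without the 3 libraries far out on the first component. Of the 38 genes that pass nutrient and energy state to mTOR, the median was -0.05, and 0.03 with total count scaling. Sesn1, a leucine-responsive inhibitor, differed by -0.25 (SE 0.21), and Prkaa2 and Prkab2, subunits of AMP-activated kinase, by -0.13 (SE 0.12) and -0.21 (SE 0.19).

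**Figure D3:**
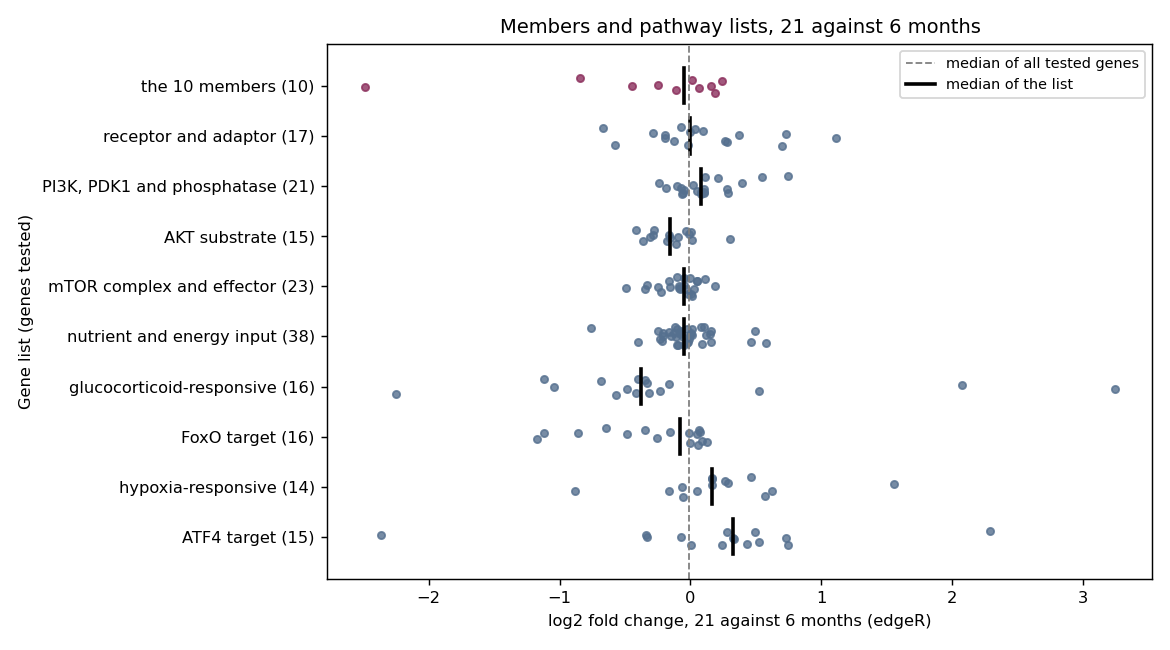
Log2 fold change between 21 and 6 months (edgeR) of each tested gene, by list; points are genes, solid bars list medians and the dashed line the median of all tested genes (-0.01). The glucocorticoid-responsive list has its median at -0.37 and the ATF4 list at 0.33, while the lists of the pathway itself have medians between -0.15 and 0.08.

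Ddit4 is known to be induced by glucocorticoids, by hypoxia and by ATF4, so genes that respond to each were read beside it. Of 16 glucocorticoid-responsive genes, 13 lay below 0 between 21 and 6 months (median -0.37) and 14 between 15 and 6 months (median -0.25), against 52.0 and 51.4% of all genes. The list of the glucocorticoid response was chosen with earlier results of these data known, so these counts are descriptions. Cebpd, a transcription factor of this response, stood at 83.96, 68.5 and 13.5 CPM at 6 months, at 13.6, 11.3 and 16.4 CPM at 15 months and at 9.98, 15.1 and 9.70 CPM at 21 months. As with Ddit4, mice 1 and 2 of 6 months were high and mouse 3 of that age was at the level of the older mice. The median between 15 and 6 months was -0.41 without mouse 3 of 6 months, and -0.47 and -0.50 without mouse 1 or 3 of 15 months. Without mouse 2 of 6 months 10 of the 16 lay below 0 in that comparison.

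The largest difference in the list went the other way. Mt2, a metallothionein (named, as is Mt1, after its values were seen), stood at 12.1, 6.70 and 4.48 CPM at 6 months, at 15.3, 5.55 and 5.31 CPM at 15 months and at 171, 26.8 and 23.6 CPM at 21 months. The 21-month mice were above all others, and mouse 1 of that age far above. The log2 difference between 21 and 6 months was 3.25 (SE 0.79, edgeR adjusted p = 0.172), and for Mt1 it was 2.08 (SE 0.56, edgeR adjusted p = 0.211).

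Fkbp5, a chaperone of the glucocorticoid receptor, stood at 203, 232 and 126 CPM at 6 months, at 84.9, 88.5 and 106 CPM at 15 months and at 121, 151 and 76.4 CPM at 21 months. Its log2 difference was -1.004 (SE 0.26) between 15 and 6 months (DESeq2 adjusted p = 0.0206) and -0.68 (SE 0.26) between 21 and 6 months. Zbtb16, another such gene, stood at 238, 244 and 123 CPM at 6 months and between 69.0 and 119 CPM in the 6 older mice, with log2 differences of -1.22 (SE 0.28) and -1.04 (SE 0.28) for 15 and 21 months (DESeq2 adjusted p = 0.00256 and 0.0120). Tsc22d3 (GILZ), in contrast, was highest in mouse 3 of 15 months at 499.8 CPM, and the 15-month mice spanned 157 to 499.8 CPM.

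By library, mouse 2 of 6 months was among the 2 highest for 11 of the 16 genes and mouse 1 for 7, while mouse 3 of that age was so for 1 and the 6 older mice for 0 to 5. Those mice, the pair with high Ddit4, were above the mean of the gene over all libraries for 13 and 12 of the 16 genes, mouse 3 for 8 and the older mice for 4 to 7. Glucocorticoid exposure was not measured, and the part of this response in the Ddit4 levels was not tested. Ddit4l did not divide the young mice that way, since mouse 3 of 6 months, at 385 CPM, lay between mice 1 and 2.

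**Figure D4:**
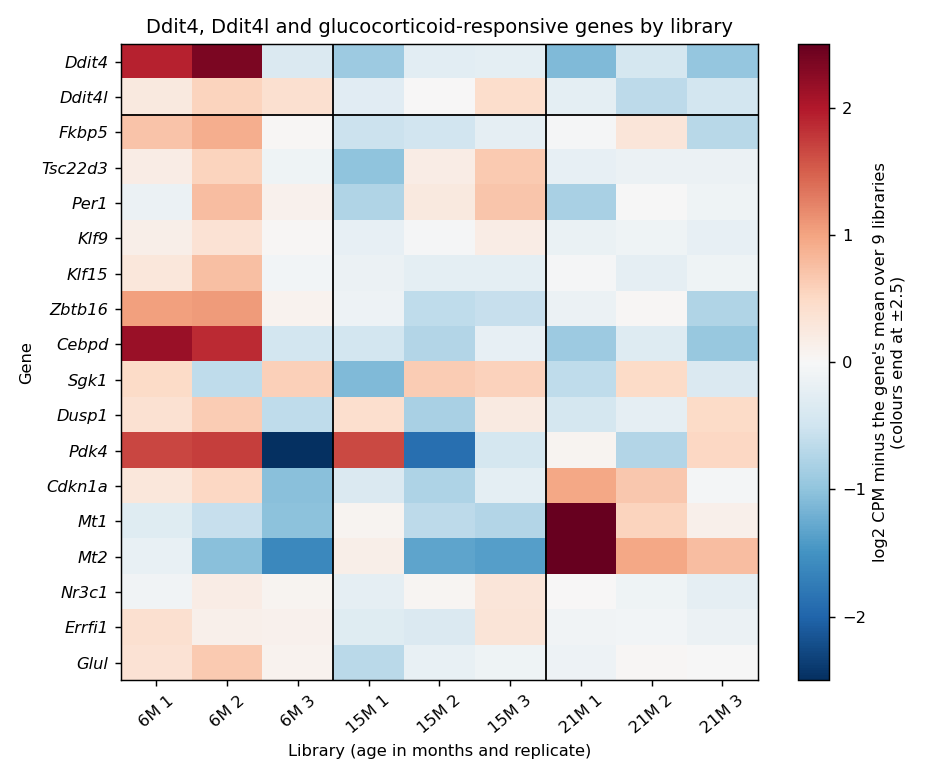
Log2 CPM minus the mean of the gene over the 9 libraries, as colour from -2.5 to 2.5, for Ddit4, Ddit4l and 16 glucocorticoid-responsive genes (rows) in each library (columns, by age). Mice 1 and 2 of 6 months are high for Ddit4 and Cebpd and mouse 3 of 6 months is not.

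Genes driven by FoxO factors in atrophy were read the same way. Of the 16, mice 1 and 2 of 6 months were above the mean of the gene over all libraries for 12 each and mouse 3 for 4, while the older mice ranged from 2 to 11. Fbxo32 (atrogin-1), a muscle ubiquitin ligase, stood at 1114, 2107 and 225 CPM at 6 months and between 382 and 865 CPM in the older mice. Trim63 (MuRF1), the other such ligase, stood at 817, 1718 and 392 CPM at 6 months and between 256 and 608 CPM in the older mice. Pdk4, which blocks pyruvate use and rises in fasting, stood at 1764, 1824 and 92.2 CPM at 6 months but also at 1727 CPM in mouse 1 of 15 months, where Ddit4 was 6.14 CPM. The 16 genes of the FoxO list had a median of -0.08 between 21 and 6 months and -0.17 between 15 and 6 months, with 10 below 0 in each. The first was -0.0006 with total count scaling and -0.20 without mouse 3 of 6 months, and the second -0.047 and -0.041 without mouse 1 or 2 of 6 months. Leaving out mouse 1, 2 or 3 of 21 months gave -0.16, -0.04 and -0.17 for the first. Klf15 and Pdk4 are in both this list and the glucocorticoid one.

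The medians of the hypoxia and ATF4 lists stood on the other side of 0. The 14 hypoxia-responsive genes had a median of 0.17 between 21 and 6 months and 0.19 between 15 and 6 months, and 10 lay above 0 in each. The first was 0.091 without mouse 3 of 21 months, and the second 0.054 without mouse 1 of 15 months. Vegfa, an angiogenic factor, stood at 310, 244 and 317 CPM at 6 months, at 533, 373 and 265 CPM at 15 months and at 258, 306 and 409.7 CPM at 21 months, with overlapping groups. Pfkfb3, a glycolytic regulator and the highest of the list, was lower at 21 than at 6 months by a log2 difference of -0.88 (SE 0.36), with overlapping groups. The 15 genes of the ATF4 list had a median of 0.33 between 21 and 6 months. Of these, 11 lay above 0 and 4 below, and the genes ran from -2.37 to 2.29. The median was 0.21 between 15 and 6 months, and -0.04 without mouse 1 of 15 months, 0.13 without mouse 3 of 15 months and 0.093 without mouse 3 of 6 months. Atf4 itself differed by 0.01 (SE 0.16) between 21 and 6 months, Ddit3 (CHOP) by 0.53 (SE 0.22) and Vldlr by 0.33 (SE 0.17), and edgeR called none of these, with adjusted p of 0.990, 0.431 and 0.531.

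For the 7 genes whose highest library was at least 1.5 times their lowest, the genes of most similar pattern were sought among 9762 genes by the Pearson correlation of log2 CPM over the 9 libraries. For Ddit4 they included Cebpd (r = 0.97, Spearman rho = 0.82) and Gbp4 (0.96, rho = 0.95), and mice 1 and 2 of 6 months were the highest 2 libraries of both. For Ddit4l they were Eepd1, Osbpl6 and Ano5 (r = 0.94, 0.93 and 0.93). For Deptor they were Phkg1, Prkab2 and Jph2 (0.97, 0.97 and 0.96), and for Mtor Ppp2ca, Fabp4 and Cd300lg (0.96, 0.94 and 0.93). All of the Deptor set were lowest in mouse 1 of 15 months, where the Mtor set were highest. All these genes were picked for likeness to a member over the same libraries. That they share its extreme libraries, as Cebpd and Gbp4 do with Ddit4, is therefore no separate result. For Pik3r1, Zfp85 came first at 0.97, for Irs1, Slc4a4 at 0.95, and for Irs2, Lsg1 at 0.95. The points share their library, so depth and make-up of the tissue are common to both genes of a pair.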

How the data were processed

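The authors deposited a table of estimated counts of reads per gene for 9 libraries, with 15354396 to 17317856 counts in all per library. RNA came from TRIzol extracts and oligo(dT) beads and was read as DNA nanoballs, per the labels' protocols. The submitters' processing notes give mm10 as the build. Aligner, counter and strand setting were not given in the sources used here. Counts were rounded and filtered with filterByExpr (minimum count 10), scaled by TMM and tested by quasi-likelihood in edgeR 4.0.16 under R 4.3.3, with age as a factor over all 9 libraries (6 residual degrees of freedom), and adjusted by Benjamini-Hochberg over 13044 genes at 0.05. DESeq2 1.42.0 was an alternative. CPM use TMM-scaled library sizes. The fit was tested on simulated counts.

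Loci come from a RefSeq table of GRCm38.p6 (10 of 10 genes matched) and exons from GENCODE M21. The members and lists were chosen with earlier results of these data known. The named genes were all members, 25 list genes given by name, the highest of each list, any list gene edgeR called, and the 3 most similar to each variable member. The values of 3 of these genes are not reported here. Genes with few counts have counting error in addition to the spread of the mice.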

Additional observations from a re-analysis of the deposited data

How the results depend on the processing

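Over 17 alternatives, 475 of 510 member values kept their direction and side of the threshold, 4 passed it newly and 31 changed sign, in 12 of the 30 member differences. The new calls were Ddit4 (-2.48) and Ddit4l (-0.84) by DESeq2 between 21 and 6 months, and Ddit4 without mouse 3 of 6 months. Genes called between 21 and 6 months (2) numbered 200 by DESeq2, 1 with total count scaling, 30 with no filter and 0 to 42 with 1 library left out. Between 15 and 6 months (1) they numbered 114 by DESeq2, 0 to 10 with 1 library left out, and 0 with total count scaling, with a filter of 5 CPM in 3 libraries or with only the 2 groups compared. Between 21 and 15 months (0) DESeq2 called 3. Members called were 2 by DESeq2 between 21 and 6 months, and 0 to 1 with 1 library left out in each comparison with 6 months. List genes called, over all the lists, were 4 and 5 by DESeq2 in those comparisons and 0 to 1 with 1 library left out. The counts of 42, 10 and 1 came without mouse 3 of 6 months. The single list gene was Cebpd, of the glucocorticoid-responsive list.

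Signs changed as follows between 15 and 6 months: with total count scaling Insr 0.026, Irs1 0.044 and Irs2 0.079, and without the 3 libraries far out on the first component Irs2 0.17 and Akt2 0.083. Without those libraries Insr was 0.069 and Pik3r1 0.26 between 21 and 15 months. Leaving out 1 library gave -0.055 to 0.27 for Irs1 and -0.045 to 0.078 for Akt2 between 21 and 6 months. Between 15 and 6 months it gave -0.16 to 0.017 for Insr, -0.36 to 0.099 for Irs1, -0.18 to 0.26 for Irs2 and -0.23 to 0.015 for Akt2. Between 21 and 15 months it gave -0.12 to 0.058 for Insr, -0.033 to 0.42 for Irs1, -0.0019 to 0.24 for Akt2, -0.18 to 0.16 for Pik3r1, -0.16 to 0.033 for Mtor and -0.024 to 0.27 for Deptor. The cause was not tested.

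The deviations of same-numbered mice had r from -0.42 to 0.41, over 0.1 in 2 of 9 pairs. Those were mice 1 of 6 and 15 months (0.41) and mice 2 of 6 and 21 months (0.19). Pairs of unlike number ran from -0.37 to 0.40. With 3 mice per age that differ in fibre marker levels, this check cannot exclude a shared batch or order of processing. With the replicate number as a block 5 genes were called between 21 and 6 months, with 1 list gene (Mt2, of the glucocorticoid-responsive list). Between 15 and 6 months 0 were called, and Irs2 was 0.029.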
